A study of Mus musculus with 4 samples.

Results

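The galectin genes *Lgals1*, *Lgals3*, *Lgals8* and *Lgals9* were followed in RNA-Seq libraries of cardiac neutrophils. They were taken by gene symbol, 4 of the 25655 genes with values in each library and 4 of the 8 numbered *Lgals* genes among them. The study asked how the inhibitory receptor CD300a affects neutrophils in the heart after myocardial ischemia and reperfusion (MI/R), in which blood flow is blocked and then restored. CD45.2+CD11b+Ly6G+ cells were sorted on day 3 after MI/R as SiglecF hi or SiglecF lo neutrophils, which the labels call SiglecF positive and negative. Each library pooled the cells of 8 hearts, and each group had 1 library. The groups were both subsets of WT mice and both subsets of *Cd300a-/-* mice, all from mice given MI/R, and the methods describe male mice of 8 to 12 weeks on a C57BL/6 background. The knockout was not limited to neutrophils, so every cell of the *Cd300a-/-* hearts lacked the receptor.

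Galectins are small lectins that bind β-galactoside sugars on glycoproteins and glycolipids. They are made in the cytosol and leave the cell without a signal peptide, and outside the cell they cross-link surface receptors, while inside it some of them bind sugars exposed on broken lysosomes. Galectin-1 and galectin-3 are abundant in macrophages and fibroblasts of injured hearts, and galectin-9 is made by many leukocytes.

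The depth, as total count over genes, was 19278243 and 17632989 for the SiglecF hi libraries of WT and *Cd300a-/-* mice, and 9631901 and 10988619 for their SiglecF lo libraries. Levels are given as TPM, a share of transcripts corrected for gene length, which allows genes to be compared. Because no group had a replicate, differences could not be checked against replicate spread, P values were not calculated, and the 95% intervals cover counting error only. The WT libraries held *Cd300a* at 162.9 TPM (SiglecF hi) and 127 TPM (SiglecF lo), against 0.74 and 1.06 TPM in the *Cd300a-/-* libraries. *Siglecf* was at 354 and 405 TPM in the SiglecF hi libraries (WT and *Cd300a-/-*) and at 11.3 and 15.3 TPM in the SiglecF lo libraries. These genes and the labels went the same way in the 4 libraries. *Ptprc*, which encodes CD45, lay between 608 and 710.0 TPM, and *Itgam*, which encodes CD11b, between 337 and 550.4 TPM. *Ly6g*, the gene of the sorting marker Ly6G, was at 11.1 and 41.9 TPM for WT and *Cd300a-/-* SiglecF hi libraries, against 330.4 and 889 TPM for the SiglecF lo libraries.

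Markers of other cells were present in these sorted cells. The 14 macrophage genes summed to 7795 TPM (WT) and 6981 TPM (*Cd300a-/-*) for SiglecF hi libraries and to 3180.5 TPM and 2913 TPM for SiglecF lo libraries, none of the 14 was at 0, and the most abundant was *C1qb*, at 2257, 2036 and 839 TPM, or *C1qa* in the last library, at 755 TPM. The 7 fibroblast genes, none at 0, summed to 2088, 1475, 964 and 979.8 TPM in the same order, led by *Dcn*, the gene of the matrix proteoglycan decorin. The 11 neutrophil genes, none at 0, summed to 27827 and 33233 TPM in the SiglecF hi libraries and to 156462 and 207240 TPM in the SiglecF lo libraries (WT and *Cd300a-/-*), led by *S100a9*. The 6 endothelial genes summed to 80.5, 103, 147 and 52.0 TPM, none of them at 0, and *Pecam1* was the most abundant. Of the 8 eosinophil genes, *Epx* was at 0 in every library and *Prg2* had 2 counts in WT SiglecF hi and 0 elsewhere, while *Ear2* led the list at 85.9 to 170.5 TPM. *Ear2* made up most of the sum, at 110 of 119 TPM in WT SiglecF hi. *Ccr3* had 141 and 141 counts in the SiglecF hi libraries (WT and *Cd300a-/-*) and 25 and 33 in the SiglecF lo libraries. In that order *Alox15* had 42, 22, 0 and 0 counts, and *Il5ra* 11, 9, 12 and 4. *Ear1* and *Ear6* had 6 and 4 counts in WT SiglecF hi and 0 elsewhere. The 6 cardiomyocyte genes summed to 18.8 to 45.9 TPM and were led by *Tnnt2* or *Pln*, with *Nppa* at 0 in 3 libraries. By counts, *Ttn* of this list stood out in WT SiglecF lo, at 1538 counts (2.62 TPM). It had 169 counts in *Cd300a-/-* SiglecF lo, and 90 and 226 in the SiglecF hi libraries of WT and *Cd300a-/-* mice. The 6 lymphocyte genes summed to 2.86 to 9.69 TPM, with *Cd3e* or *Cd79a* among the genes at 0 in each library and *Cd79a* or *Cd3g* the most abundant. In such bulk libraries, fewer cells of a type and less RNA per cell cannot be told apart, and the part of these other cells in the galectin values was not tested.

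*Lgals3* encodes galectin-3, the chimera-type galectin that forms lattices with branched N-glycans and is a known marker of cardiac fibrosis. The gene (ENSMUSG00000050335) lies on chromosome 14 from 47605208 to 47623617, on the plus strand of GRCm39, the build in the submitters' processing notes. Among SiglecF hi neutrophils it had 22803 counts (1399 TPM) in WT and 14792 counts (1014 TPM) in *Cd300a-/-* mice, and among SiglecF lo neutrophils 7550 counts (791 TPM) and 7806 counts (741 TPM), respectively. It was the most abundant galectin gene in each library, at rank 99 and 154 in the SiglecF hi and rank 197 and 192 in the SiglecF lo libraries of WT and *Cd300a-/-* mice among all genes by TPM. The level was highest in WT SiglecF hi neutrophils, and the counting intervals of the 4 libraries, 725 to 758 TPM in the lowest and 773 to 809 TPM in the next, did not overlap.

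*Lgals1* encodes galectin-1, a prototype galectin that forms homodimers and is known to dampen leukocyte recruitment. The gene (ENSMUSG00000068220) lies on chromosome 15 from 78810925 to 78814665, on the plus strand. SiglecF hi neutrophils held 9629 counts (1215 TPM) in WT against 5765 counts (813 TPM) in *Cd300a-/-* mice, and SiglecF lo neutrophils held 3342 counts (720.3 TPM) against 1837 counts (359 TPM). Its level was thus lowest in *Cd300a-/-* SiglecF lo neutrophils, where the 95% interval of the count, 1754 to 1923, lay apart from those of the other 3 libraries, as it did after conversion to TPM (343 to 376 TPM, against 696 to 745 TPM in WT SiglecF lo).

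*Lgals9* and *Lgals8* encode tandem-repeat galectins, which carry a pair of sugar-binding domains on 1 chain. Galectin-9 is a ligand of TIM-3, and galectin-8 binds sugars on damaged vesicles and recruits autophagy receptors. *Lgals9* (ENSMUSG00000001123; chromosome 11, 78853800 to 78875772, minus strand) was at 263 TPM (3718 counts) and 281 TPM (3562 counts) in the SiglecF hi libraries of WT and *Cd300a-/-* mice, and at 309 TPM (2561 counts) and 308 TPM (2816 counts) in the SiglecF lo libraries. The SiglecF lo libraries did not differ beyond counting error in *Lgals9* (297 to 321 TPM and 297 to 319.6 TPM) and lay above both SiglecF hi libraries. *Lgals8* (ENSMUSG00000057554; chromosome 13, 12454296 to 12479825, minus strand) was at 45.8 TPM (1227 counts), 44.1 TPM (1058 counts), 23.9 TPM (375 counts) and 26.8 TPM (465 counts) in the order used for *Lgals9*. The levels of *Lgals8* fell into a higher pair, the SiglecF hi libraries, and a lower pair, the SiglecF lo libraries, with overlapping count-based intervals within each pair (41.5 to 46.8 and 43.2 to 48.4 TPM, and 21.5 to 26.4 and 24.5 to 29.4 TPM). Its region overlaps the end of *Heatr1*, on the other strand, which had 722, 835, 270 and 235 counts, and reads of the shared stretch cannot be assigned without strand.

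**Figure D1:**
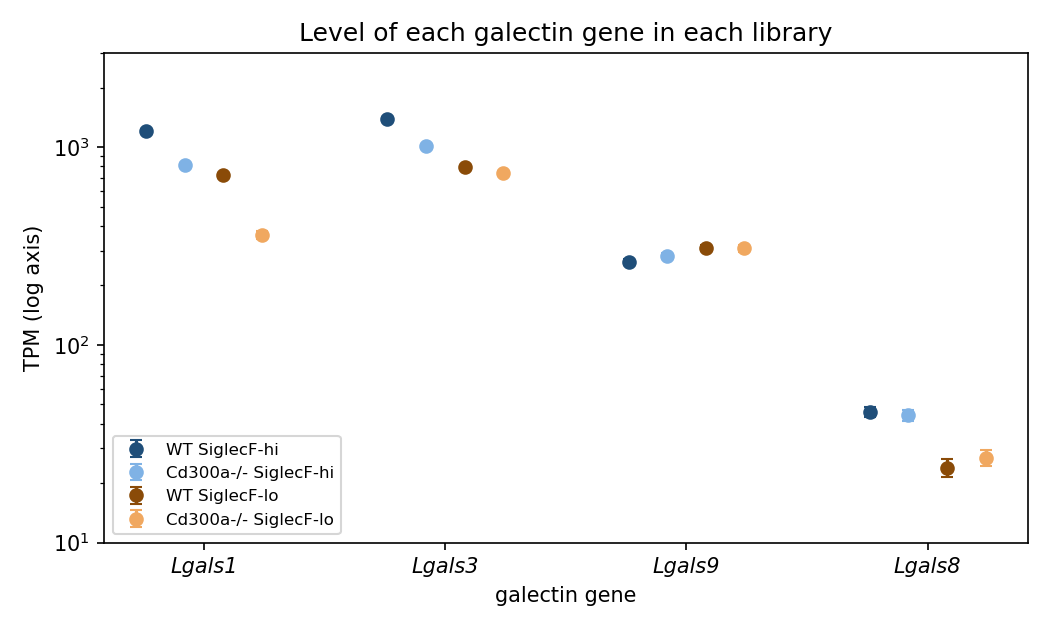
TPM (log axis) of the 4 galectin genes in the 4 libraries, 1 point per library, with bars for the 95% Poisson interval of the count scaled to TPM. *Lgals1* and *Lgals3* are highest in WT SiglecF hi neutrophils, at 1215 and 1399 TPM, and *Lgals9* stays between 263 and 309 TPM.

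The order of the levels was *Lgals3*, *Lgals1*, *Lgals9* and *Lgals8* in every library, and neighbours in that order lay apart beyond their counting intervals. The 4 genes together reached 2922 TPM (WT) and 2152 TPM (*Cd300a-/-*) among SiglecF hi libraries, and 1844 TPM and 1435 TPM among SiglecF lo libraries. In that order, *Lgals1* made up 41.6%, 37.8%, 39.1% and 25.0% of the sum, and *Lgals9* 8.99%, 13.1%, 16.8% and 21.5%. The share of *Lgals1* was therefore smallest, and that of *Lgals9* largest, in *Cd300a-/-* SiglecF lo neutrophils. The log2 ratio of *Lgals1* to *Lgals3* within a library, which no scaling between libraries can change, was -0.20 (95% counting interval -0.24 to -0.17) in WT SiglecF hi and -0.32 (-0.36 to -0.27) in *Cd300a-/-* SiglecF hi neutrophils. In SiglecF lo neutrophils it was -0.13 (-0.19 to -0.076) in WT and -1.05 (-1.12 to -0.97) in *Cd300a-/-*. The genotypes thus differed in this ratio by -0.91 (-1.01 to -0.82) among SiglecF lo and by -0.12 (-0.17 to -0.060) among SiglecF hi neutrophils.

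The question of what the loss of CD300a changed was addressed by comparing the genotypes within each subset, on the scale log2((TPM + 1) ratio), with *Cd300a-/-* over WT. Genes with a mean TPM over 10 were compared, 6523 genes with all 4 galectin genes among them, and genes past 0.5 were counted. In SiglecF hi neutrophils *Lgals1* was lower in *Cd300a-/-*, at -0.58 (95% counting interval -0.63 to -0.53), and was the 1 galectin gene past the threshold, which 3.46% of all genes passed in this direction. *Lgals3* followed at -0.46 (-0.49 to -0.43), a level difference that 4.05% of all genes exceeded downward, and it reached -0.50, just past the threshold, when each ratio was centred on the median of all genes. *Lgals8*, at -0.053 (-0.17 to 0.063), did not differ beyond counting error, and *Lgals9* was at 0.098 (0.032 to 0.16). No galectin gene was past 0.5 upward, against 3.31% of all genes, and the median of the 4 was -0.26, beside 0.038 for all genes. Of the fibroblast genes, 3 of the 6 that passed the filter were past -0.5 in this comparison, their median was -0.53, and their summed TPM had a log2 ratio of -0.50. The summed macrophage genes had a log2 ratio of -0.16, with 1 of 13 past 0.5 and none past -0.5. Of the neutrophil genes, 5 of 11 were past 0.5 and none past -0.5. These were *Ngp* at 4.40, *Camp* at 2.94, *Ly6g* at 1.82, *Ltf* at 1.70 and *Retnlg* at 1.20, while the sum, led by *S100a9* (0.16) and *S100a8* (0.26), was at 0.26. The endothelial sum was at 0.36, with 1 of 5 past 0.5, the cardiomyocyte sum at 0.38, with 0 of 2, and the eosinophil sum at 0.016. The lymphocyte sum was at 1.41, from 2.86 TPM in WT and 7.59 TPM in *Cd300a-/-*, and no lymphocyte gene passed the filter. The part of any of these lists in the galectin values was not tested.

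In SiglecF lo neutrophils *Lgals1* fell in *Cd300a-/-*, at -1.003 (-1.08 to -0.92), 0.499 times its WT level on the TPM + 1 scale. It was again the 1 galectin gene past the threshold, but 19.9% of all genes were lower past 0.5 in this comparison, and 5.96% had a ratio below that of *Lgals1*. *Lgals3* was at -0.093 (-0.14 to -0.048), and the intervals of *Lgals8*, 0.16 (-0.027 to 0.35), and *Lgals9*, -0.0047 (-0.082 to 0.072), included 0. None was past 0.5 upward, against 16.4% of all genes, and the median of the 4 was -0.049, beside -0.016 for all genes. The summed macrophage genes had a log2 ratio of -0.13, with 3 of 13 past -0.5 and 1 past 0.5. The summed fibroblast genes had one of 0.023, with 1 of 6 past 0.5 and none past -0.5. The endothelial sum was lower, at -1.50, with all 5 endothelial genes that passed the filter past -0.5. The eosinophil sum was at -0.97 and the cardiomyocyte sum at -0.94, with 1 of 1 and 1 of 2 genes that passed the filter past -0.5. The lymphocyte sum was at 0.30, again with no gene that passed the filter. The summed neutrophil genes were at 0.41, and 6 of 11 were past 0.5 upward. Whether any of these lists had a part in the lower *Lgals1* was not tested.

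The difference between the subsets in the genotype ratio, SiglecF hi minus SiglecF lo, was 0.42 (0.33 to 0.52) for *Lgals1* and -0.37 (-0.43 to -0.32) for *Lgals3*. *Lgals1* was thus lower in *Cd300a-/-* in both subsets and more so in SiglecF lo neutrophils, whereas *Lgals3* was lower mainly in SiglecF hi neutrophils. For *Lgals8* this difference was -0.21 (-0.44 to 0.0066), and for *Lgals9* it was 0.10 (0.00099 to 0.20). These differences rest on 1 library in each of the 4 groups and were not tested.

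The subsets were then compared within each genotype, on the same scale, with SiglecF hi over SiglecF lo. Over all 6523 genes the median lay at 0.53 (WT) and 0.61 (*Cd300a-/-*), and most genes had a higher TPM in SiglecF hi libraries, and TMM scaling (edgeR) brought these medians to 0.0020 and 0.050. The 11 neutrophil genes held more TPM in SiglecF lo than SiglecF hi libraries (sums above), and their part in this shift was not tested. Values relative to the median of all genes are therefore given for the galectin genes and for the genes named below from the lists of galectin biology.

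In WT neutrophils *Lgals8* was at 0.91 (0.75 to 1.07), *Lgals3* at 0.82 (0.78 to 0.86) and *Lgals1* at 0.75 (0.70 to 0.81). These 3 of the 4 galectin genes were past 0.5, as were 51.9% of all genes. The median of the 4 was 0.79, beside 0.53 for all genes, or 0.26 relative to all genes. Relative to the median of all genes *Lgals8*, *Lgals3* and *Lgals1* were at 0.38, 0.30 and 0.23, and none of them was past 0.5. *Lgals9* went the other way, at -0.23 (-0.31 to -0.16), which was -0.76 relative to the median. No galectin gene was lower past 0.5 on the deposited scale, against 7.47% of all genes, and *Lgals9* was past -0.5 after centring. With centring, 1259 genes were higher and 1363 lower in SiglecF hi neutrophils, and with TMM scaling 1309 were higher and 1371 lower, in place of 3386 and 487.

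In *Cd300a-/-* neutrophils *Lgals1* was at 1.18 (1.10 to 1.25) and *Lgals8* at 0.69 (0.54 to 0.85), the 2 galectin genes past 0.5, as were 56.6% of all genes. The median of the 4 was 0.57, beside 0.61 for all genes, or -0.040 relative to all genes. *Lgals3* was at 0.45 (0.41 to 0.49) and *Lgals9* at -0.13 (-0.20 to -0.060), with no galectin gene lower past 0.5 against 7.97% of all genes. Relative to the median, *Lgals1* was at 0.56, *Lgals8* at 0.082, *Lgals3* at -0.16, on the other side of 0, and *Lgals9* at -0.74. The counting interval of *Lgals8* then included 0 (-0.071 to 0.23), as it did with TMM scaling (-0.021 to 0.28). *Lgals1* was thus higher in SiglecF hi neutrophils of both genotypes under each scaling, and the direction of *Lgals3* in *Cd300a-/-* neutrophils turned with the scaling. Centring gave 1382 genes higher and 1540 lower, and TMM scaling 1580 higher and 1427 lower, in place of 3692 and 520.

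On the same log2 scale, the summed macrophage genes were at 1.29 in WT and 1.26 in *Cd300a-/-*, with 8 and 11 of the 13 that passed the filter past 0.5 and 1 and 0 past -0.5, where 51.9% and 56.6% of all genes were past 0.5. Relative to the median of all genes, 8 (WT) and 5 (*Cd300a-/-*) of them were higher and 2 and 2 lower. The summed fibroblast genes were at 1.11 and 0.59, with 6 and 3 of 6 past 0.5, but relative to the median 4 and 0 were higher and 0 and 1 lower. The summed neutrophil genes were at -2.49 and -2.64, with 8 and 10 of 11 past -0.5, against 7.47% and 7.97% of all genes, and 11 and 11 relative to the median. Of all genes, 19.3% were higher and 20.9% lower relative to the median in WT, and 21.2% and 23.6% in *Cd300a-/-*. The summed endothelial genes were at -0.87 (WT) and 0.99 (*Cd300a-/-*), with 4 of 5 lower and then 5 of 5 higher, but relative to the median 5 were lower in WT and 1 was higher in *Cd300a-/-*. The summed cardiomyocyte genes were at -0.025 and 1.29, with 1 and 2 of 2 higher, and 1 lower in WT and 1 higher in *Cd300a-/-* relative to the median. The eosinophil sum was at -0.54 and 0.45, and *Ear2*, the 1 eosinophil gene that passed the filter, was at -0.63 and 0.39, or -1.16 and -0.22 relative to the median. The lymphocyte sum was at -1.46 and -0.35, with no gene that passed the filter. The part of these lists in the subset ratios of the galectin genes was not tested.

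**Figure D2:**
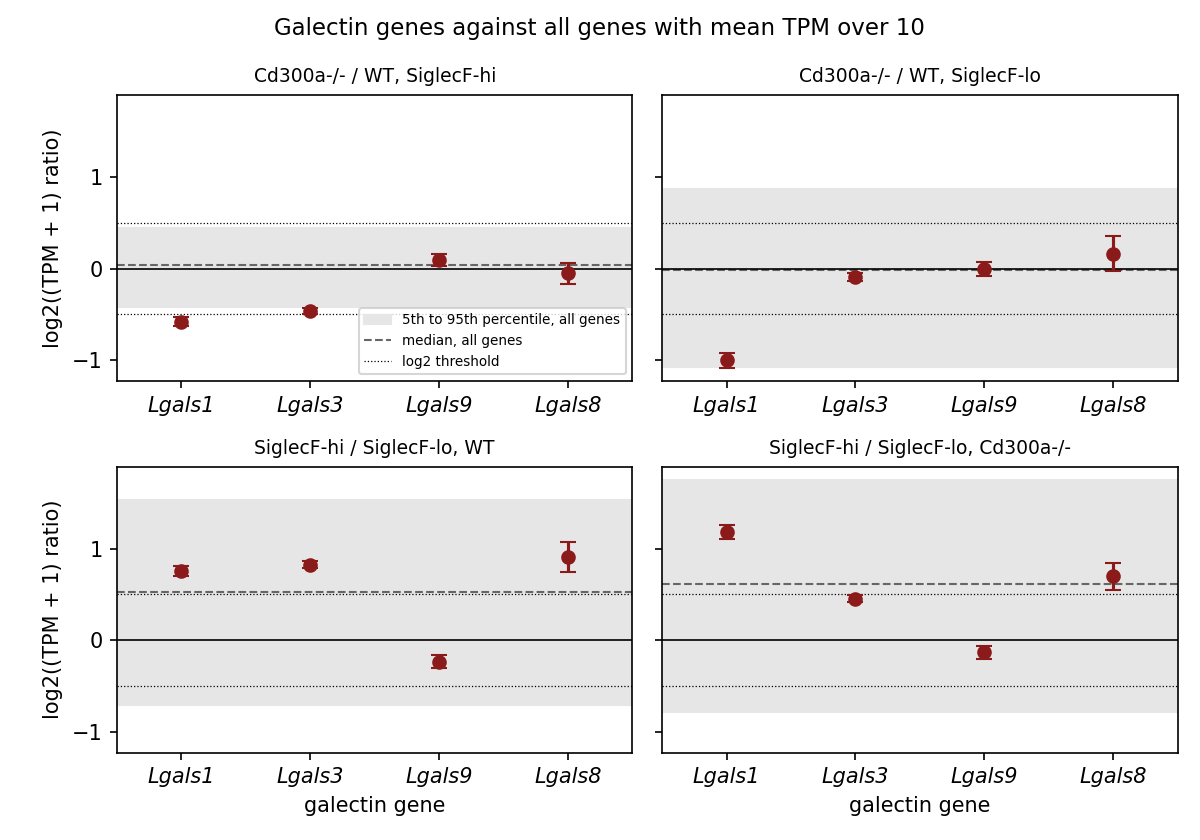
The log2((TPM + 1) ratio) of the 4 galectin genes in the 4 comparisons, with 95% counting intervals. The grey band spans the 5th to 95th percentile of 6523 genes, the dashed line is their median, and dotted lines mark 0.5 and -0.5. *Lgals1* and *Lgals3* lie below the band in SiglecF hi neutrophils, at -0.58 and -0.46, *Lgals1* lies inside it in SiglecF lo neutrophils at -1.003, and in the subset comparisons the median of all genes is at 0.53 and 0.61.

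Other galectin genes were at or near 0. *Lgals2*, *Lgals12* and *Grifin* had 0 counts in the 4 libraries, which at a limit of 3 counts, 1-sided, where the 2-sided 95% interval of a count of 0 ends at 3.69, is 0.156 to 0.311 CPM (counts scaled to library size). *Lgals4*, the gene of an epithelial galectin, had 27 and 10 counts in the SiglecF hi libraries (WT and *Cd300a-/-*) and 0 and 28 in the SiglecF lo libraries, and *Lgals7*, known from stratified epithelia, had 14 counts in WT SiglecF hi and 0 in the other 3. The galectin-related gene *Lgalsl* had 59 to 88 counts (2.23 to 5.09 TPM). None of these 6 passed the mean TPM of 10, and *Lgals6*, a close copy of *Lgals4*, was not analysed here.

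Of 17 genes for galectin ligands and partners, 14 passed the filter. In SiglecF hi neutrophils 1 was higher in *Cd300a-/-*, *Spn* (CD43, a glycoprotein ligand of galectin-1), from 21.6 to 31.6 TPM (log2 ratio 0.53, 0.41 to 0.65; 0.49 relative to the median of all genes), and none was lower. In SiglecF lo neutrophils 1 was higher, *Itgam*, which is also among the neutrophil genes, at 367 against 550.4 TPM (0.58, 0.55 to 0.62), and 2 were lower. Of all genes 3.31% were higher and 3.46% lower in the first comparison, and 16.4% and 19.9% in the second. The lower genes were *Pdpn*, the gene of podoplanin, at 40.1 against 17.4 TPM (-1.16, -1.41 to -0.91), and *Nrp1*, the gene of neuropilin-1, at 38.9 against 25.8 TPM (-0.57, -0.73 to -0.41). Their median was 0.016 for SiglecF hi and 0.057 for SiglecF lo neutrophils, beside 0.038 and -0.016 for all genes.

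Between the subsets, 9 of these 14 genes were higher in SiglecF hi neutrophils in WT and 9 in *Cd300a-/-*, against 51.9% and 56.6% of all genes. Lower were 0 and 1, against 7.47% and 7.97% of all genes. Relative to the median of all genes, 5 were higher and 3 lower in WT, against 19.3% and 20.9% of all genes. In *Cd300a-/-* 5 were higher and 4 lower, against 21.2% and 23.6%. The median of the 14 was 0.70 in WT and 0.96 in *Cd300a-/-*, beside 0.53 and 0.61 for all genes. The largest ratio was that of *Mertk*, an efferocytosis receptor, at 48.8 against 9.91 TPM in WT (2.19, and 1.66 relative to the median), and at 36.3 and 8.90 TPM in *Cd300a-/-* (1.92, and 1.30). *Mertk* is also among the macrophage genes. *Lamp1*, which encodes a lysosomal membrane glycoprotein that carries galectin-binding sugars, was at 1256 against 421 TPM in WT (1.57, and 1.05). *Havcr2*, which encodes TIM-3, was at 89.6 against 38.9 TPM in WT (1.18, and 0.66), in contrast to its ligand gene *Lgals9*. In *Cd300a-/-* the next largest were *Pdpn*, at 59.3 against 17.4 TPM (1.72, and 1.10 relative to the median), and *Nrp1*, at 68.4 against 25.8 TPM (1.37, and 0.76), and the 1 lower gene was *Itgam* (-0.50, and -1.12).

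Galectins bind best to branched, N-acetyllactosamine-rich glycans, and all 15 genes listed for their synthesis passed the filter. In SiglecF hi neutrophils none was past 0.5 between genotypes, against 3.31% of all genes higher and 3.46% lower, and their median was 0.067 beside 0.038 for all genes. In SiglecF lo neutrophils 4 were higher and 3 lower in *Cd300a-/-*, against 16.4% and 19.9% of all genes, with a median of 0.058 beside -0.016 for all genes. *Mgat2*, which starts the second antenna of complex N-glycans, was at 42.2 TPM (WT) against 12.9 TPM (-1.64, -1.86 to -1.41), below its levels of 56.8 and 54.8 TPM in the SiglecF hi libraries. *Slc35a2*, the UDP-galactose transporter, was at 18.5 against 7.68 TPM (-1.17), and *C1galt1c1*, a chaperone for O-glycan core synthesis, at 43.0 against 27.0 TPM (-0.65). *Man2a1*, the Golgi mannosidase that acts just before MGAT2, was higher, at 14.0 against 33.2 TPM (1.19, 1.05 to 1.33), as were *Man1a* at 17.0 against 27.1 TPM (0.64) and *Mgat5*, the branching enzyme for galectin-3 ligands, at 6.88 against 10.9 TPM (0.60).

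Between the subsets, 10 of the 15 were higher in SiglecF hi neutrophils in WT and 12 in *Cd300a-/-*, against 51.9% and 56.6% of all genes. None was lower, against 7.47% and 7.97% of all genes. Relative to the median of all genes, 7 were higher and 1 lower in WT, against 19.3% and 20.9% of all genes. In *Cd300a-/-* 6 were higher and 2 lower, against 21.2% and 23.6%. The median of the 15 was 0.98 in WT and 0.83 in *Cd300a-/-*, or 0.45 and 0.22 relative to all genes. *B3gnt2*, which extends poly-N-acetyllactosamine, was at 24.8 against 7.55 TPM in WT (1.59, and 1.07 relative to the median) and 34.1 against 11.01 TPM in *Cd300a-/-* (1.55, and 0.94). *B4galt1*, which adds the galactose that galectins bind, was at 88.0 against 32.2 TPM in WT (1.42, and 0.90) and 114 against 31.9 TPM in *Cd300a-/-* (1.80, and 1.19). *Man2a1* was at 40.7 against 14.0 TPM in WT (1.48, and 0.95), and *Mgat2* had the largest ratio in *Cd300a-/-*, at 54.8 against 12.9 TPM (2.01, and 1.39).

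Some sialic acid caps can block the binding of some galectins, and 6 of the 9 genes listed for sialylation passed the filter. The list also holds the sialidase genes *Neu1* and *Neu3*, and *Neu1*, which passed, was its most abundant gene in each library. None of the 6 was past 0.5 between genotypes, where 3.31% of all genes were higher and 3.46% lower (SiglecF hi) and 16.4% and 19.9% (SiglecF lo). Their medians were 0.21 and 0.22 beside 0.038 and -0.016 for all genes. Between the subsets 2 were higher in each genotype, with 1 lower in WT and none in *Cd300a-/-* (all genes, 51.9% and 56.6% higher, 7.47% and 7.97% lower). Relative to the median of all genes, 1 was higher and 1 lower in WT, against 19.3% and 20.9% of all genes. In *Cd300a-/-* none was higher and 2 were lower, against 21.2% and 23.6%. *St6gal1*, which caps with α2,6-linked sialic acid, was at 20.1 against 8.67 TPM in WT (1.13, and 0.60 relative to the median) and 22.1 against 10.1 TPM in *Cd300a-/-* (1.06, and 0.45), and *St3gal1* at 54.2 against 31.1 TPM in WT (0.78, and 0.26) and 65.6 against 40.8 TPM in *Cd300a-/-* (0.67, and 0.057). *St3gal6* was the 1 lower gene in WT, at 38.9 against 63.8 TPM (-0.70, and -1.23). The median of the 6 was 0.25 in WT and 0.43 in *Cd300a-/-*, which was -0.27 and -0.19 relative to all genes.

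Of 11 genes of the response to lysosome damage, in which galectin-3 and galectin-8 take part, 10 passed the filter. Between genotypes 1 was higher in each subset and none lower, against 3.31% higher and 3.46% lower (SiglecF hi) and 16.4% and 19.9% (SiglecF lo) of all genes, with medians of 0.15 and -0.034 beside 0.038 and -0.016 for all genes. It was *Optn*, an autophagy receptor, in SiglecF hi neutrophils, at 30.5 (WT) against 48.5 TPM (0.65, 0.52 to 0.79), and *Atg16l1* in SiglecF lo neutrophils, at 13.6 against 20.8 TPM (0.58, 0.36 to 0.80). Between the subsets 2 were higher and 1 lower in WT, and 3 and 1 in *Cd300a-/-*, where 51.9% and 56.6% of all genes were higher and 7.47% and 7.97% lower. The medians of the 10 were 0.090 and 0.23, beside 0.53 and 0.61 for all genes, or -0.44 and -0.38 relative to all genes. Relative to the median of all genes none was higher, against 19.3% (WT) and 21.2% (*Cd300a-/-*) of all genes. Lower were 3 and 2, against 20.9% and 23.6%. *Sqstm1*, which encodes the autophagy receptor p62, was at 748 against 464 TPM in WT (0.69, and 0.16 relative to the median) and 833 against 508 TPM in *Cd300a-/-* (0.71, and 0.10). *Pdcd6ip*, which encodes the membrane repair protein ALIX, was at 70.3 against 37.0 TPM in WT (0.91, and 0.38) and 72.3 against 43.5 TPM in *Cd300a-/-* (0.72, and 0.11). *Tax1bp1* was at 269 against 188 TPM in *Cd300a-/-* (0.51), but at -0.10 relative to the median. *Map1lc3b*, which encodes an LC3 protein, was lower, at 131 against 226 TPM in WT (-0.78, and -1.31) and 137 against 209 TPM in *Cd300a-/-* (-0.61, and -1.22).

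The genes most like each galectin gene were found by the smallest Euclidean distance between log2(TPM + 1) values of the 4 libraries, each gene centred on its mean. For *Lgals1* these were *Smim19*, *Gipc1*, *Gm42742*, *Cygb* and *Dmac1*, at distances of 0.025 to 0.12. *Smim19*, the nearest, was at 43.6 and 28.2 TPM in the SiglecF hi libraries (WT and *Cd300a-/-*) and at 24.9 and 11.9 TPM in the SiglecF lo libraries. *Cygb*, which encodes cytoglobin, a globin of fibroblasts, was at 46.8, 30.7, 25.5 and 12.3 TPM in the same order. The *Cd300a-/-* to WT log2 ratio of *Cygb* in SiglecF lo neutrophils was -0.99, where that of the summed fibroblast genes was 0.023. For *Lgals3* they were *Htra2*, *Mfap5*, *mt-Nd5*, *Pdia4* and *Col8a1* (0.079 to 0.11). *Htra2*, the nearest, was at 34.2, 25.8, 20.2 and 17.7 TPM in the same order. *Mfap5* and *Col8a1* encode matrix proteins, and *Mfap5* was at 63.9, 46.2, 33.4 and 33.2 TPM. For *Lgals8* they were *Ccdc80*, which encodes a matrix protein, *Slc9a9*, *Tbc1d22a*, *Yeats4* and *Ankle2* (0.016 to 0.051). For *Lgals9* they were *Ccr1*, a chemokine receptor of myeloid cells, *Tnfrsf1a*, *Rbm4*, *Hmgn2* and *Ppp2cb* (0.026 to 0.061). *Ccr1* was at 569, 623, 673 and 677 TPM. With TMM scaling, all 5 for *Lgals1* and *Lgals9* were again among the nearest, 4 of 5 for *Lgals3* (not *Pdia4*) and 3 of 5 for *Lgals8* (not *Yeats4* and *Ankle2*). With 4 libraries, genes can lie close to a pattern by chance, which was not tested.

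Promoter windows of 250 bases before to 50 after the gene's start, from RefSeq (GRCm38.p6, another build than that of the gene positions above), were matched by symbol for 3 of the 4 genes, *Lgals3*, *Lgals8* and *Lgals9*, and not for *Lgals1*. They were searched on both strands for the TATA box (TATAAA), the CCAAT box (CCAAT), the GC box (GGGCGG), the AP-1 motif (TGANTCA), the STAT motif (TTCNNNGAA), the PU.1 motif (GAGGAAGT) and the core of the interferon-stimulated response element (GAAA repeated after any 2 bases). The stretches of *Lgals3* and *Lgals9* are printed because these are the most abundant of the 3 genes, and the motifs were chosen with the values of the genes known. *Lgals3* held 1 match of CCAAT and 2 of GGGCGG, *Lgals8* held 2 of CCAAT, and *Lgals9* held 2 of the interferon-stimulated core. The second GGGCGG match of *Lgals3* begins at base 5 after the start, outside its printed stretch. Of 32851 windows, 37.4% held at least 1 match of CCAAT, 35.7% of GGGCGG and 3.44% of the interferon-stimulated core, and 11.7%, 19.5% and 0.225% held at least 2. Of the other motifs, none was matched in these 3 windows, where the TATA box is in 13.6%, the AP-1 motif in 7.81%, the STAT motif in 8.3% and the PU.1 motif in 3.2% of all windows. The 250 bases before the start are printed 5′ to 3′ on the gene's strand with matches on either strand in capitals, for *Lgals3* (chr14:47373610-47373859, plus strand) and *Lgals9* (chr11:78984925-78985174, minus strand), followed by 30 bases around the second match of *Lgals9*, after its start (chr11:78984890-78984919). A match of letters is a description of the sequence, and no factor binding was measured.
*Lgals3*: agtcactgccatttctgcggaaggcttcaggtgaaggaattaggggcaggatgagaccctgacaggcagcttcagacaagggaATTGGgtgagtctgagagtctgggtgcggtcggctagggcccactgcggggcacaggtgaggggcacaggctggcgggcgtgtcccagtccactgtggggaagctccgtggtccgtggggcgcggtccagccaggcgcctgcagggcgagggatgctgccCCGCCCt
*Lgals9*: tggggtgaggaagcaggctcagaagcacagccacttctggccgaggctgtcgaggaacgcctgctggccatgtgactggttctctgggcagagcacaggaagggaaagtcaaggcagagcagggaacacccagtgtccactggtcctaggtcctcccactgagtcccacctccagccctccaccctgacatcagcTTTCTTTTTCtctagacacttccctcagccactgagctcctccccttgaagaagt
*Lgals9* second match: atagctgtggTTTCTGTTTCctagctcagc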

How the data were processed

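Libraries of poly(A)-selected RNA were sequenced from both ends, and the authors calculated TPM with CLC Genomics Workbench, by the study's methods. Aligner settings beyond the build GRCm39, named in the submitters' processing notes, and the annotation release are not given in the sources used here. The authors deposited for each gene a count (a whole number, reads or pairs not stated), RPKM (per length and depth), TPM (with the same total in each library) and a scaled CPM signal. Counts and TPM were used here, and the deposited RPKM and the deposited CPM signal were not.

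Values are log2((TPM + 1) ratio) for 6523 genes with a mean TPM over 10, called past 0.5. The 95% intervals are exact Poisson intervals of counts, and the delta method for ratios. Alternatives were TMM-scaled CPM (edgeR 4.0.16, R 4.3.3), centring on the median of all genes, a pseudocount of 0.1, a mean TPM over 1, a TPM over 10 in both libraries and a threshold of 1, and, chosen after seeing the data, a mean TPM over 100. The rule that both intervals lie off 0 for genes of opposite direction was also chosen then. The galectin genes and the gene lists were chosen with earlier results of these data known. The genes named are the 4 galectin genes, the sorting genes, the 5 genes nearest to each galectin gene, the most abundant and the defining genes of the cell type lists, and, from each of the 5 lists of galectin biology, up to 3 largest rises and 3 largest falls past 0.5 in each comparison, a rule applied to each list on its own. The defining genes at 0, *Ccr3*, *Alox15*, *Il5ra*, *Ear1*, *Ear6* and *Ttn* were chosen after their values were seen. So were the neutrophil genes past 0.5 between genotypes in SiglecF hi, *S100a8*, *Heatr1*, the galectin genes below the filter and the promoter motifs. The calculation was tested on simulated counts with known changes and Poisson error only. These hold no spread between mice or pools, so they cannot show whether a difference would recur in other libraries. Python 3.11.15, numpy 2.4.6, pandas 2.3.3, scipy 1.17.1 and matplotlib 3.10.9 were used.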

Additional observations from a re-analysis of the deposited data

Results flagged for a closer look

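On the deposited scale, none of *Lgals1*, *Lgals3*, *Lgals8* and *Lgals9* had genotype or subset ratios of opposite sign with both counting intervals off 0, and the genes below, from those named in the text with a mean TPM over 10, did. Galectin genes under that mean were not compared in this way. The subset ratio of *Lgals3* was of opposite sign relative to the median of all genes, at 0.30 (0.26 to 0.33) in WT and -0.16 (-0.20 to -0.12) in *Cd300a-/-*, and with TMM scaling it was at 0.28 and -0.13. With 1 library per group none of these differences was tested.

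Between the genotypes' SiglecF hi to SiglecF lo log2 ratios, WT minus *Cd300a-/-*, *Spn* differed by -0.50 (-0.34 in WT and 0.16 in *Cd300a-/-*), *Optn* by -0.72 (-0.31 and 0.41), *Ear2* by -1.02 (-0.63 and 0.39) and *Pecam1* by -2.20 (-1.27 and 0.92). The opposite signs of *Spn* (-0.86 and -0.45), *Optn* (-0.83 and -0.20) and *Ear2* (-1.16 and -0.22) were lost relative to the median of all genes, as with TMM scaling, and that of *Pecam1* was kept (-1.80 and 0.31). *Man2a1* (0.95 and -0.42), *mt-Nd5* (0.25 and -0.23) and *Col8a1* (0.23 and -0.18) were then of opposite sign, *Col8a1* not past the intervals with TMM scaling. Between the subsets' *Cd300a-/-* to WT log2 ratios, SiglecF hi minus SiglecF lo, *Pecam1* differed by 2.20 (0.38 in SiglecF hi and -1.82 in SiglecF lo), *Man2a1* by -1.29 (-0.098 and 1.19), *St3gal6* by 0.60 (0.34 and -0.27), *Tax1bp1* by 0.31 (0.21 and -0.098), *Lamp1* by -0.28 (-0.20 and 0.081) and *Map1lc3b* by 0.18 (0.068 and -0.11). All but *Map1lc3b* (0.030, -0.022 to 0.083, in SiglecF hi) kept this relative to the median, where *Ccdc80* (-0.11 and 0.18) and *Tbc1d22a* (-0.12 and 0.22) were also of opposite sign, *Tbc1d22a* not past the intervals with TMM scaling.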

How the results depend on the processing

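Leaving out a library was not possible with 1 library per group, and the intervals cover counting error only. Each group had 1 library, and no paired analysis and no test were made. A pseudocount of 0.1 changed no ratio of the 36 main values, nor any of the 37 ratios of genes named from the lists of galectin biology, beyond its counting interval, and no count of genes by over 1.5 times, the largest relative change being from 216 to 250 genes. No called ratio of the 4 galectin genes changed sign, while the subset ratio of *Tax1bp1* in *Cd300a-/-* went from 0.51 to -0.068 with TMM scaling and to -0.10 with centring. The mean TPM over 100, and the list medians and the ratios of genes named from the lists under the alternatives, and the genes of opposite sign under TMM and centring, were chosen after seeing the data. Where no construction is named, the cause was not tested.

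With TMM scaling, the SiglecF hi to SiglecF lo log2 ratios in WT were 0.21 for *Lgals1*, 0.28 for *Lgals3*, 0.39 for *Lgals8* and -0.77 for *Lgals9*, with 0 galectin genes higher and 1 lower, and 1309 genes higher and 1371 lower in all. In *Cd300a-/-* they were 0.59, -0.13, 0.13 and -0.71, with 1 galectin gene higher and 1 lower, and 1580 and 1427 in all. With centring they were 0.23, 0.30, 0.38 and -0.76 in WT, with 0 galectin genes higher and 1 lower, and 1259 and 1363 in all, and 0.56, -0.16, 0.082 and -0.74 in *Cd300a-/-*, with 1 and 1, and 1382 and 1540 in all. Both alternatives take out a shift shared by all genes by construction. Centring also put *Lgals3* at -0.50 between genotypes in SiglecF hi neutrophils, with 2 galectin genes lower.

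A threshold of 1 calls fewer genes by construction. Between genotypes it gave 24 higher and 22 lower in SiglecF hi, with 0 galectin genes lower, and 219 and 392 in SiglecF lo neutrophils. Between subsets it gave 1325 and 195 in WT, with 0 galectin genes higher, and 1739 and 236 in *Cd300a-/-*, with 1. The filters changed how many genes were compared and the share of them past the threshold, and why the share changed was not tested. A mean TPM over 1 gave 806 higher and 910 lower between genotypes in SiglecF hi (7.03% and 7.93%, in place of 3.31% and 3.46%), 2370 and 2808 in SiglecF lo (20.7% and 24.5%, in place of 16.4% and 19.9%), and between subsets 6241 and 1076 in WT (54.4% and 9.38%) and 6646 and 973 in *Cd300a-/-* (57.9% and 8.48%). A mean TPM over 100 gave 19 and 20 (1.42% and 1.49%), 103 and 249 (7.68% and 18.6%), 403 and 184 (30.0% and 13.7%), and 610 and 190 (45.5% and 14.2%) in the same order, with 1 galectin gene higher between subsets in *Cd300a-/-*. A TPM over 10 in both libraries gave 684 higher and 832 lower (13.5% and 16.4%) between genotypes in SiglecF lo neutrophils.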
